A study of Homo sapiens with 16 samples.

Results

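The late-only regions of progenitors are stretches of the genome in which open chromatin was called in every progenitor library of days 90 and 120 and in no progenitor library of days 40 and 60. They were found by merging the peaks of all 16 ATAC-seq libraries on chromosomes 1 to 22 and X wherever peaks overlapped by at least 1 base. Of 321056 merged regions, 1708 met the rule, or 5.32 per 1000. The mirror set, with a peak in all 4 early and none of the 4 late progenitor libraries, held 1582 regions and is called early-only, and 39841 regions had a peak in all 8 progenitor libraries. Because progenitor peaks chose the members, their progenitor values are given as a description, and comparisons rest on the neuron libraries. The rule asked for no neuron peak, present or absent. Neuron peaks entered it through the merging, where they helped set the extent of a region and so which progenitor peaks fell in it.

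The cells came from brain organoids made from the human embryonic stem cell line H9 and enriched for dorsal telencephalon, from which the cerebral cortex develops. All groups carried the same pair of reporters in an otherwise wild-type line. EGFP was fused through a P2A peptide to the end of one SOX2 allele, so that progenitors, which express this transcription factor, were green. dTomato driven by the human synapsin 1 promoter sat in the AAVS1 site and made neurons red. Progenitors (SOX2::EGFP+) and neurons (hSyn1::dTomato+) were sorted on days 40, 60, 90 and 120, with 2 libraries for each population and day. Below, "late" means days 90 and 120 and "early" means days 40 and 60, with 4 libraries each within a population. Whether the 2 libraries of 1 population and day stem from separate cultures is not in the labels, so a p-value here rests on library-to-library spread that may be technical. The sorted cells are mixtures, so a region open in fewer cells and a region open less often in each cell cannot be told apart.

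In ATAC-seq the Tn5 transposase cuts and tags DNA that is not wrapped in nucleosomes, so that peaks mark promoters and enhancers available to transcription factors. Cortical progenitors, the radial glia, make deep-layer neurons first, then upper-layer neurons, and turn late to making astrocytes. Nuclear factor I (NFI) proteins, which bind sites holding TTGGC, promote that late step, and AP-1 factors, which bind TGANTCA where N is any base, open enhancers in many cell types. A sorted neuron is the postmitotic offspring of such a progenitor, so a region opening late in progenitors can be looked up in neurons of the same day.

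Late-only regions rarely lay at promoters, the only places where their sequence could be read here. They overlapped 20 promoter windows, each from 250 bases before to 50 bases after a transcript start, and 9 of these belonged to protein-coding genes. RefSeq promoter sequences (GRCh38.p14, the coordinates of hg38) were on hand for 15812 of 19974 protein-coding genes. The 5 printed here were chosen from these 9 because at least 257 of their 300 bases lay in a late-only region and because they differ in the neuron pattern given beside them below. DIPK1A met this too, with 271 bases, and is not printed. It alone of the 9 held neither TTGGC nor TGANTCA, so every printed sequence has a marked match. All lie on the minus strand and are written 5′ to 3′ along the gene, and capitals mark TTGGC on either strand (GCCAA on the printed one) and TGANTCA. HEPACAM, an adhesion molecule of astrocytes, has chr11:124935998-124936297. FGF1, a fibroblast growth factor, has chr5:142644190-142644489. CD180, a relative of the Toll-like receptors known from B cells, has chr5:67196750-67197049. NPC1L1, a cholesterol transporter of the gut, has chr7:44541281-44541580. TAS2R30, a bitter taste receptor, has chr12:11134595-11134894.
HEPACAM: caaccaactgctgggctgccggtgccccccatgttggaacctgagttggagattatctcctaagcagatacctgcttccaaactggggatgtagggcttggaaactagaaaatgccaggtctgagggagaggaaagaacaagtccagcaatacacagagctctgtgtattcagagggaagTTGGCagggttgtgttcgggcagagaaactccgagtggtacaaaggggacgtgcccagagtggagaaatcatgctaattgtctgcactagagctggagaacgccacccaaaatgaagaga
FGF1: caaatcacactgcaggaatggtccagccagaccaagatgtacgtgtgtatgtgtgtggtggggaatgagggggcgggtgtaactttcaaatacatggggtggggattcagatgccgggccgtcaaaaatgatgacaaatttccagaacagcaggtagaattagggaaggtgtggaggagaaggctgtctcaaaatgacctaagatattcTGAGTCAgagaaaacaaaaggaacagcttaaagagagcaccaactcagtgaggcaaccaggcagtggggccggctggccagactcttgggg
CD180: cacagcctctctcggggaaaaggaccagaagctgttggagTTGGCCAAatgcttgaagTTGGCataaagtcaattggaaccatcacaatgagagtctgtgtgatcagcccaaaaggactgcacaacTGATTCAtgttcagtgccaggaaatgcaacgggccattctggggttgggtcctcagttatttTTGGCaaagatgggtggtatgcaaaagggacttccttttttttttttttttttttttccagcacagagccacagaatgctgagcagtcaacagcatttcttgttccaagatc
NPC1L1: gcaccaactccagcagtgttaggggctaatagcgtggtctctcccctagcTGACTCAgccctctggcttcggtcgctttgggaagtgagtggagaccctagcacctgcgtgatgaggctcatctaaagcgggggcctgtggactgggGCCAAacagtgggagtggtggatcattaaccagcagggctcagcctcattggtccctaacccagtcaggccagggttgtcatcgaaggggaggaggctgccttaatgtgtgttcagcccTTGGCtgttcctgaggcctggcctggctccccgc
TAS2R30: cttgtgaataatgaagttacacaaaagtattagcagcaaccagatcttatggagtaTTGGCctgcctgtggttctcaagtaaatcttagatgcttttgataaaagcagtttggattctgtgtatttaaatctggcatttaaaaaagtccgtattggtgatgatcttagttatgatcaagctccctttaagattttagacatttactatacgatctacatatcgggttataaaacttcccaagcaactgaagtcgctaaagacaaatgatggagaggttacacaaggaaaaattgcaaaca

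TGANTCA was found in 7 of the 20 promoter windows (35%), against 7.68% of 34961 windows in the whole table. The protein-coding promoters among the 7 were those of CD180, FGF1 and NPC1L1, each with 1 match. TTGGC was found in 13 of 20 windows (65%), against 45.6% of all windows, and ACAAT, the core letters bound by SOX proteins, in 10 (50%), against 27.3%. CD180 held 4 TTGGC matches, NPC1L1 2, HEPACAM and TAS2R30 1 each and FGF1 none, and none of these overlapped a TGANTCA or an ACAAT. The promoter windows were poorer in G and C than most, with a median of 45.5% G and C and 3 CpG dinucleotides, against 58.7% and 14 over all windows. The 20 windows are few, 2 of them overlap each other at one RNA gene, and a match of letters is not a bound site.

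The neuron patterns of these promoters differed. At HEPACAM (chr11:124934882-124936449, hg38) peaks covered 934, 462, 1548 and 475 bases in the late progenitor libraries, in the order day 90 replicates 1 and 2, day 120 replicates 1 and 2. In neurons 306 bases were covered at day 90 in replicate 1 and none in the other 7 libraries. The HEPACAM region thus stayed closed, as far as peaks were called, in every early neuron library and in 3 of 4 late ones. The region at ALDH1A1, which makes retinoic acid, reached 31 bases into its promoter window and covered 810, 383, 931 and 165 bases in late progenitors. Its neuron peaks covered 459 bases in day 90 replicate 1 and 566 and 589 bases at day 120, with none in day 90 replicate 2 or in any early library. The 10 kb window around it had more covered bases in late than in early neurons (log2 difference 1.05 ± 0.28, SE, limma adjusted p = 0.0158, with the test described below). That call was lost without 1 of 3 neuron libraries (day 60 replicate 1, day 90 replicate 1 or day 120 replicate 2; adjusted p up to 0.137), and without scaling to the amount called (adjusted p = 0.0642).

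At FGF1 (chr5:142643304-142645553) neuron peaks were absent at day 40 and covered 1805 and 694 bases (day 60), 880 and 1860 (day 90) and 742 and 700 (day 120). Late progenitors had 671, 616, 230 and 395 bases there. The 2 day 60 neuron libraries had peaks where both day 60 progenitor libraries had none, as the rule requires of every member. At NPC1L1 late neurons had 754 bases in day 90 replicate 1 and none in the other 3 libraries, against 554, 680, 195 and 382 bases in the 4 early ones (window log2 difference -0.42 ± 0.31, adjusted p = 0.467). CD180 had 281 and 623 bases at day 90 and 1656 in day 120 replicate 1, against 325 bases in day 40 replicate 1 among the early neurons. At TAS2R30 neurons showed the timing of progenitors, with 990, 783, 992 and 978 bases in the 4 late libraries and none in the 4 early ones. The windows at CD180 (adjusted p = 0.00635) and FGF1 (adjusted p = 0.0326) were called higher in late neurons, but not without scaling (0.0701 and 0.0607). Leaving out day 60 replicate 1 or day 120 replicate 1 ended the call at CD180, and leaving out any neuron library other than day 90 replicate 1 that at FGF1 (adjusted p up to 0.0786 and 0.152).

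Across all members, late-only regions were open more often in late than in early neurons. A peak was present in neurons for 35.0% (replicate 1) and 23.8% (replicate 2) of the 1708 regions at day 40, for 31.0% and 21.6% at day 60, for 48.4% and 40.1% at day 90, and for 58.4% and 48.5% at day 120. The mean was 48.8% ± 7.47 in late neurons and 27.8% ± 6.21 in early neurons (SD, n = 4 each), a difference of 21.0 percentage points. Each late library lay above each early one, the nearest being 40.1% and 35.0%. Early-only regions of progenitors had a lower mean in late neurons, with 8.94% ± 3.59 in late and 24.0% ± 13.6 in early libraries, 15.0 points lower. Those groups overlapped, since day 60 replicate 2 (8.34%) lay below both day 90 libraries (11.1% and 12.8%), and both day 40 libraries were at 35.4%. Regions open in all 8 progenitor libraries showed 80.8% ± 4.29 in late and 80.6% ± 7.52 in early neurons, and all merged regions 30.9% ± 3.15 and 34.5% ± 7.49.

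The length of the lists was set beside these shares, and its part in them was not tested. The 4 late neuron lists covered 80.0 and 80.3 Mb (day 90) and 63.0 and 55.7 Mb (day 120), against 104 and 97.9 Mb (day 40) and 83.4 and 54.8 Mb (day 60) in the 4 early ones. The day 120 libraries, which held the highest shares of late-only regions, were thus among the 3 shortest of the 8 neuron lists together with day 60 replicate 2, which held the lowest share. Within a day the longer list had the higher share at days 40, 60 and 120, while the day 90 lists were of nearly equal length. The SOX2 locus (gene and 20 kb on either side), which marks progenitors, had 6.41 ± 2.12 kb of peaks in late neurons (3.81 to 8.94 kb) and 4.77 ± 0.0675 kb in early neurons (SD, n = 4 each), against 13.7 ± 4.69 and 13.0 ± 2.50 kb in late and early progenitors. Of the late neuron libraries 3 of 4 (8.94, 6.07 and 6.82 kb) lay above every early one (4.68 to 4.83 kb) and day 90 replicate 2 (3.81 kb) below, with a scaled log2 difference of 0.60 ± 0.19 (SE, limma adjusted p = 0.0561). The locus of SYN1, the synapsin 1 gene, had 2.86 ± 0.594 kb in late and 3.16 ± 0.545 kb in early neurons (SD, n = 4 each). Late and early progenitors had 3.28 ± 0.579 and 3.32 ± 0.373 kb there, so this locus did not separate the populations. The part of progenitor chromatin in the neuron shares was not tested.

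**Figure D1:**
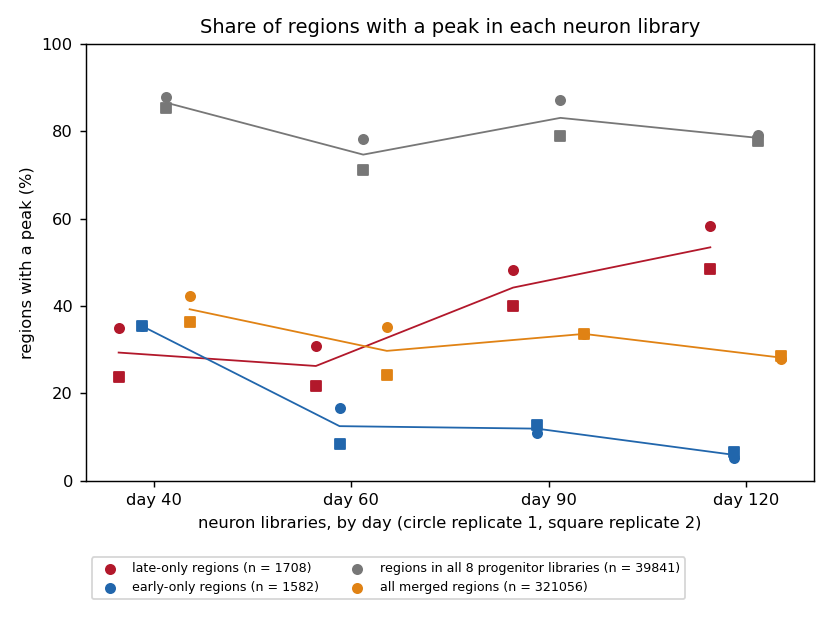
Share of regions with a peak (%, vertical) in each neuron library, by day (horizontal, circles replicate 1, squares replicate 2), with lines through the day means. Late-only regions lie between 21.6% and 35.0% in early neurons and between 40.1% and 58.4% in late neurons, while early-only regions fall to 5.25% and 6.64% at day 120 and regions open in all 8 progenitor libraries range from 71.2% to 87.9%.

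Single regions were sorted by how many late and early neuron libraries had a peak in them. More late than early neuron libraries had a peak at 826 members (48.4%), against 21.6% of all merged regions, and fewer late than early at 192 (11.2%), against 34.5%. Peaks in all 4 late and no early neuron libraries, the same timing as in progenitors, were found at 94 members (5.50%), against 1.24% of all regions. The reverse timing, all 4 early and no late neuron libraries, was found at 0 members, against 0.267% of all regions and 9 of the 1582 early-only regions. With 4 libraries against 4, a test of 1 region cannot go below an unadjusted exact p of 0.0286, which no adjustment over all regions could pass, so these are counts beside a background and not tests. The background also holds regions called in 1 library only, which members cannot be.

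Many members were never seen in neurons, and others were open there from the start. A peak in at least 1 neuron library was found at 1243 members (72.8%), against 73.9% of all regions, and at 225 members (13.2%) as many late as early libraries had one, against 17.8% of all regions. At 465 members (27.2%) no neuron library had a peak, close to the 26.1% of all merged regions, while 813 of 1582 early-only regions (51.4%) had none. All 8 neuron libraries had a peak at 122 members (7.14%), against 12% of all regions. In these 122 regions neurons of days 40 and 60 had called peaks where progenitors of the same days had none, which the rule requires of every member. Peaks in both libraries of a day were present at 365 members (21.4%) at day 40, 328 (19.2%) at day 60, 606 (35.5%) at day 90 and 777 (45.5%) at day 120, and the same shares over all regions were 30.6%, 20.3%, 25.4% and 22.6%. Day 120 alone, with both its libraries and no other neuron library, accounted for 52 members (3.04%, against 0.88%), and day 90 alone for 6 (0.351%, against 0.529%). A pattern chosen after its values were seen, with peaks in all 6 neuron libraries from day 60 on and none at day 40, held for 64 members (3.75%), against 0.633% of all regions and 0 early-only regions.

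**Figure D2:**
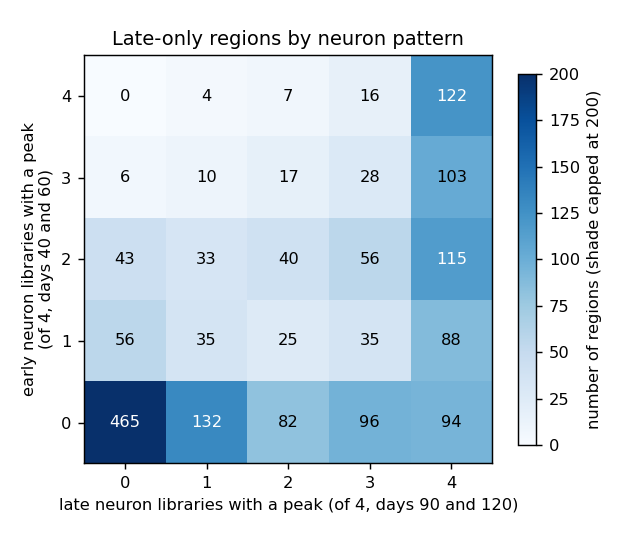
Number of late-only regions by the number of late (horizontal) and early (vertical) neuron libraries with a peak, each of 4. The largest cell is 465 regions with no neuron peak, followed by 132 with a peak in 1 late library, 122 in all 8 and 115 in all 4 late and 2 early libraries, and the cell for all early and no late libraries is 0.

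In the libraries that chose them, late-only regions were mostly of middling strength. The fold enrichment that the authors' peak caller gave each peak was ranked within its own list. The median percentile of the members was 53.0 and 37.9 in day 90 progenitors and 70.9 and 43.6 in day 120 progenitors, against 76.0, 74.0, 73.3 and 63.0 for regions open in all 8 progenitor libraries. In neurons, where a member had a peak, its median percentile was 50.5 and 39.8 on day 40, then 60.9 and 63.4 on day 60, 60.7 and 62.7 on day 90, and 67.3 and 69.6 on day 120. Peaks covered 63.5% and 53.5% of the members' bases in day 90 progenitors and 75.3% and 38.9% in day 120 progenitors. The same figure in neurons was 22.7% and 14.8%, 19.7% and 12.4%, 30.6% and 26.4%, and 36.4% and 26.6% from day 40 to day 120.

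The rule turned on a few libraries. Just outside it, 4968 regions had a peak in 3 late and no early progenitor libraries, and 3586 of these lacked it in day 120 replicate 2, the progenitor library with the least called (36.9 Mb, against 77.6 to 103 Mb in the other 7). These near misses showed a neuron peak in 45.2% of late and 29.8% of early libraries on average. The 1961 regions with 4 late and 1 early progenitor libraries showed 51.6% and 37.4%. When every list was reduced to its strongest peaks of equal covered length, 1192 regions met the rule and 35 of the 1708 (2.05%) overlapped one of them, so few members met the rule among the strongest peaks.

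The members were distal elements. Their median width was 943.5 bases, against 652 over all merged regions, and 720 of 1708 (42.2%) had their centre inside a protein-coding gene, against 51.6%. The gene table used here gives gene spans only, so exons and introns were not told apart. A gene end, that is the start or the end of a protein-coding gene, lay within 1 kb of 25 members (1.46%), against 6.76% of all regions and 28.6% of regions open in all 8 progenitor libraries. The median distance to the nearest gene end was 74.1 kb, against 44.3 kb over all regions and 52.4 kb for early-only regions. Members were scattered, with 159 (9.31%) within 50 kb of another and a median of 486 kb to the nearest one. The 122 members open in all 8 neuron libraries were wider (median 1332 bases) and more often in genes (53.3%) than the 465 without a neuron peak (780 bases, 41.5%) or the 94 with the timing of progenitors (972 bases, 34.0%). Each further peak merged into a region can only widen it, so these widths, and that against all merged regions, partly follow from the number of peaks. Of 1558 miRNA hairpins, 1, that of MIR3977, lay in a member.

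Chromosomes differed in how many members they held for their number of regions. The highest were chromosome 3 with 6.72 members per 1000 merged regions, X with 6.71 and 13 with 6.61. The lowest were chromosome 22 with 1.14 (6 members of 5248 regions), 19 with 1.39 (9 of 6482), 16 with 2.42, 17 with 3.23 and 20 with 3.996. Early-only regions were spread more evenly over these, with 5.34 per 1000 on chromosome 22, 4.01 on 19, 5.89 on 16, 5.28 on 17 and 6.66 on 20.

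**Figure D3:**
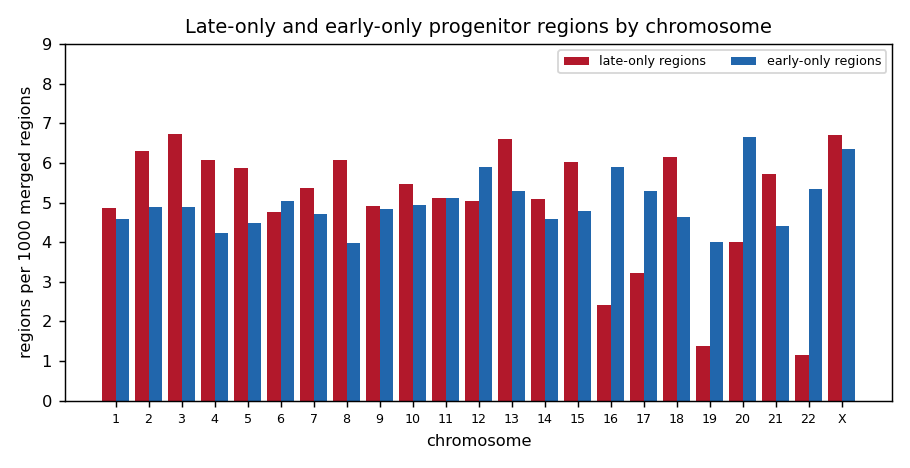
Late-only regions (red) and early-only regions (blue) per 1000 merged regions (vertical) on each chromosome (horizontal). Chromosomes 16, 17, 19, 20 and 22 have the 5 lowest late-only bars, from 1.14 to 3.996, while their early-only bars lie between 4.01 and 6.66.

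Members near the genes of known lists were examined next. At least 1 member lay in the gene or within 20 kb of it for 22 of 236 list genes (9.32%), against 4.39% of all 19974 protein-coding genes, and long genes hold more regions of any kind. Of 15 astroglial genes 2 had 1 each, SLC1A2, the glutamate transporter of astrocytes, and SPARCL1, a secreted matrix protein of astrocytes. Of 10 outer radial glia genes TNC, the matrix protein tenascin C, and PTPRZ1, a receptor phosphatase of these cells, had 1 each. Of 12 late temporal and gliogenic factors NFIA and RORA had 1 each. None of the 20 radial glia, 11 early temporal, 12 proneural, 12 AP-1 or 12 housekeeping genes had one. At the 4.39% found over all genes, none in a list of 11 to 20 genes is near the background. The median gene window of these lists was 44.9 to 99.6 kb. It was 142 kb for outer radial glia, 146 kb for late temporal and 53.8 kb for astroglial genes.

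The members at glial and matrix genes differed in their neuron timing, and 5 with peaks in all 4 late neuron libraries are given first. At SLC1A2 (chr11:35413596-35415377) neurons had no peak at day 40 and 763 and 824 bases (day 60), 1326 and 1225 (day 90) and 1225 and 1036 (day 120). At TNC (chr9:115104620-115105444) the same libraries had 0 and 0, 550 and 265, 654 and 751, and 652 and 627 bases. At NFIA (chr1:61279442-61280109), whose protein drives the start of glial fate, they had 0 and 0, 400 and 384, 429 and 523, and 269 and 181 bases. By the rule, no day 60 progenitor library had a peak at these 3 regions. Their neuron peaks placed all 3 among the 64 with peaks from day 60 on and none at day 40. FBLN2, encoding the matrix protein fibulin 2, was another, with 355 and 408 bases at day 60. At PTPRZ1 (chr7:121944747-121945605) neurons had 811, 307, 837 and 534 bases in the 4 late libraries and none in the early ones, the same timing as in progenitors, which had 503, 551, 369 and 227 bases when late. Others of these lists differed: VCAN, a matrix proteoglycan, had 299 bases in day 90 replicate 2 alone, and RORA 319 in day 40 replicate 1 and 241 in day 120 replicate 1. COL1A2, a collagen of mesenchymal cells, had peaks in both day 40 libraries (752 and 935 bases), neither day 60 library, both day 90 libraries (820 and 647) and day 120 replicate 2 (835).

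Other list genes had members that stayed closed in all neurons. SPARCL1, EGFR, a growth factor receptor of glial progenitors, and MAML2, a Notch coactivator, had members with no neuron peak, at MAML2 both of its 2. So did BMPR1B and SMAD3 of the BMP and TGF-beta pathways, TTR, the transthyretin gene of the choroid plexus, SOX5, a deep-layer factor, and SYT1, the synaptic calcium sensor, with both of its 2. The member counted for SMAD3 lay inside another gene, AAGAB, and that for TTR in no gene, 15092 bases from TTR. At EGFR (chr7:55044007-55045042) late progenitors had 1010, 330, 984 and 911 bases and the 8 neuron libraries none. BMPR1A, a BMP receptor, had 1 member open in all 8 neuron libraries, with 757 to 1503 bases, and 1 open only at day 120 among them, with 508 and 394 bases. LATS2, a Hippo pathway kinase, had 1 member with 606 to 970 bases in all 8. ERBB4, the neuregulin receptor of interneurons, had 3 members, with peaks in 0, 1 and 5 of the 8 neuron libraries.

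**Figure D4:**
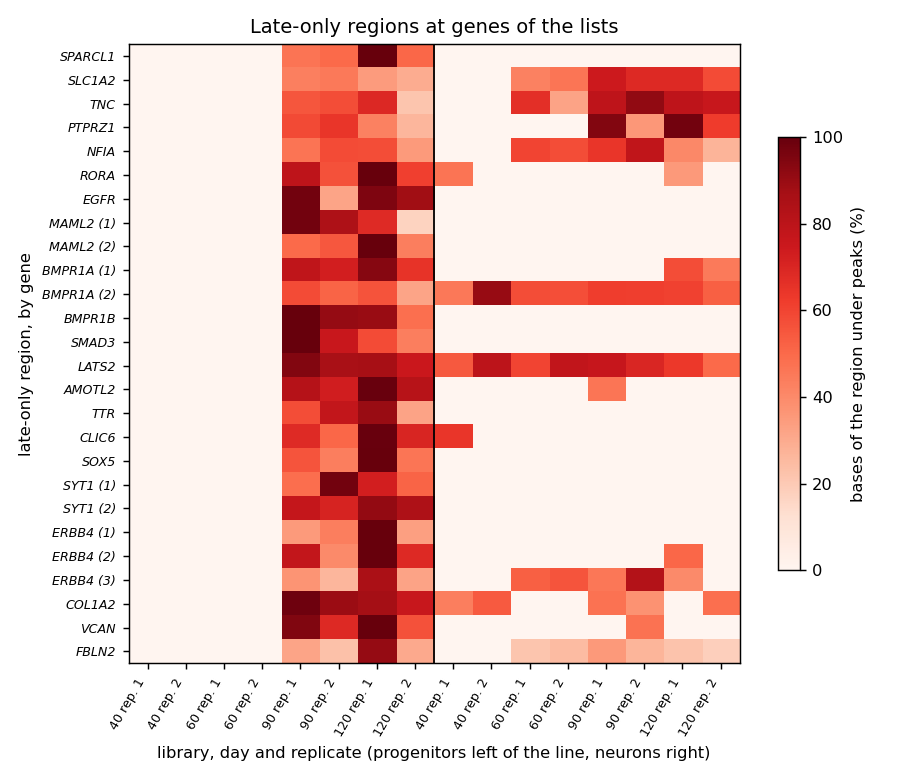
Share of each region's bases under peaks (colour, %) for 26 late-only regions at list genes (rows) in every library (columns, progenitors left of the line, neurons right, each by day and replicate). Early progenitor columns are empty because of the rule. In neurons the rows of SLC1A2, TNC, NFIA and FBLN2 begin at day 60 and PTPRZ1 at day 90, BMPR1A (2) and LATS2 are filled in all 8, and SPARCL1, EGFR and MAML2 are empty.

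The genes with most members included long genes of synapses. DLG2, a scaffold of the postsynaptic density, held 6 of its 261 regions, PRKG1, a cGMP-dependent kinase, 5 of 181, and NRXN3, a presynaptic adhesion protein, and PTPRD, a synaptic receptor phosphatase, 4 each of 264 and 314. ACTA2, the smooth muscle actin, whose span overlaps that of FAS, held 3 of 14, and ADAMTS9, EFHC2, RFTN1, STXBP6 and KCTD16 held 3 each of 24 to 54. Members of 1 gene did not share a neuron pattern. At DLG2, 3 of the 6 had peaks in all 8 neuron libraries, 1 in 2 early and 4 late ones, 1 in both day 40 libraries only and 1 in none. At NRXN3, the member chr14:78790265-78791031 had 664, 699, 704 and 599 bases in late neurons and none in early ones, while chr14:78332906-78333247 had none in any. At PRKG1, 1 member had 872 and 574 bases at day 40 and none later, and another had none at any day.

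The members nearest to gene ends show each neuron pattern. Of those with peaks in all late and no early neurons, the nearest were at TAS2R30 (which lies within the spans of PRH1 and PRH1-TAS2R14), inside BTBD1 and ACSS1, and 3277 and 3278 bases outside SAMSN1 and VMP1. VMP1, a membrane protein of autophagy, had 758, 886, 1173 and 401 bases at chr17:59845533-59846889 in late progenitors and 1116, 771, 988 and 879 in late neurons. Without any neuron peak, the nearest were at CFAP53, BEST3, C10orf90, ASRGL1 and GBP3. At CFAP53, a protein of motile cilia, chr18:50226480-50227448 covered 886, 857, 499 and 384 bases in late progenitors. With peaks in all 8 neuron libraries, the nearest included those at OCM, SEMA3A, BMPR1A and STAMBPL1. At SEMA3A, a secreted guidance cue, chr7:83957318-83960083 had 500, 392, 401 and 167 bases in late progenitors, against 1176 and 1558 (day 40), 2310 and 2350 (day 60), 2378 and 2357 (day 90) and 862 and 661 (day 120) in neurons.

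The timing in neurons was tested on windows of 10 kb rather than on single regions. Each value was log2(covered bases + 500), scaled by subtracting log2 of the library's total covered length, and 118498 windows were fitted with limma, with late minus early neurons as the contrast. Windows holding a member could be tested for 1551 of the 1708, in 1545 windows, and 343 of these (22.2%) were higher in late neurons, against 8.32% of all windows. Lower in late neurons were 11 (0.712%), against 1.57% of all. Without scaling to the amount called, 249 were higher and 54 lower, against 5.41% and 10.5% of all windows. Scaling raised every difference by 0.26, and the median difference was 0.36 at member windows and 0.14 over all windows, or 0.10 and -0.12 without scaling. Mean covered bases were more in late neurons at 827 member windows and fewer at 577, and 140 windows had none in neurons. The higher count fell by over 1.5 times without day 60 replicate 1 (228, or 14.8%, against 5.08% of all windows), day 90 replicate 1 (206, 13.3%, against 4.47%), day 120 replicate 1 (227, 14.7%, against 4.83%) or day 120 replicate 2 (224, 14.5%, against 5.03%). A fit of the neuron libraries alone called 336 higher (21.7%, against 8.36% of all windows) and 11 lower (0.712%, against 1.37%). Progenitor values had no part in its estimates. They did help choose the windows tested, since the filter on covered bases counted all 16 libraries. The counts hung on the pseudocount, since with 2000 in place of 500 bases 5 member windows were higher and 0 lower, against 144 and 0 of all windows.

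The 5 windows with the largest rise had peaks in all 4 late neuron libraries and in 0 to 2 of the early ones. The window near WDR44, 96073 bases from the gene on chromosome X, had 1489, 648, 1398 and 1646 covered bases in the 4 late neuron libraries and none in the 4 early ones (log2 difference 2.07 ± 0.27, SE, limma adjusted p = 6.46e-05). Near GRAMD2B on chromosome 5 the late libraries had 1738, 1122, 1614 and 1324 bases, against 313 in day 60 replicate 1 and none in the other early ones (2.04 ± 0.25, adjusted p = 3.62e-05). Near CBLN4, which encodes a secreted cerebellin that organises synapses, though 507357 bases away, they had 1297, 956, 1750 and 840, against none (2.01 ± 0.27, adjusted p = 7.44e-05). Near CXADR the late libraries had 1720, 1660, 1754 and 1899 bases, against 1157 in day 60 replicate 1 and none in the other early ones (adjusted p = 4.49e-05). Near TMEM100 they had 1574, 1695, 1871 and 1401, against 451 in day 40 replicate 1, 343 in day 60 replicate 1 and none in the other early ones (1.93 ± 0.26, adjusted p = 8.03e-05). Windows were also read at the 5 members nearest a gene end with peaks in all late and no early neurons. Those at TAS2R30 (1.78 ± 0.26, adjusted p = 0.000161), VMP1 (1.78 ± 0.26, adjusted p = 0.000144) and SAMSN1 (1.08 ± 0.25, adjusted p = 0.0056) were called. Those at BTBD1 (0.59 ± 0.21, adjusted p = 0.0729) and ACSS1 (0.67 ± 0.22, adjusted p = 0.0557) were not. Both were called in the fit of neurons alone (adjusted p = 0.0462 and 0.0426) and without scaling (0.0241 and 0.0499). Some windows of other members named above were called, such as that of chr14:78790265-78791031 at NRXN3 (1.48 ± 0.27, adjusted p = 0.000865), and others were not. Of the 5 glial and matrix members given first above, that at TNC was called (0.95 ± 0.27, adjusted p = 0.0225). Those at SLC1A2 (0.57, adjusted p = 0.0684), FBLN2 (0.73, 0.074), NFIA (0.39, 0.411) and PTPRZ1 (-0.17, 0.615) were not. The call at TNC was lost without scaling (adjusted p = 0.0727) or without 1 of 5 neuron libraries (up to 0.13). None of the other calls of the main fit named in this paragraph was lost by leaving out 1 neuron library or the scaling.

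**Figure D5:**
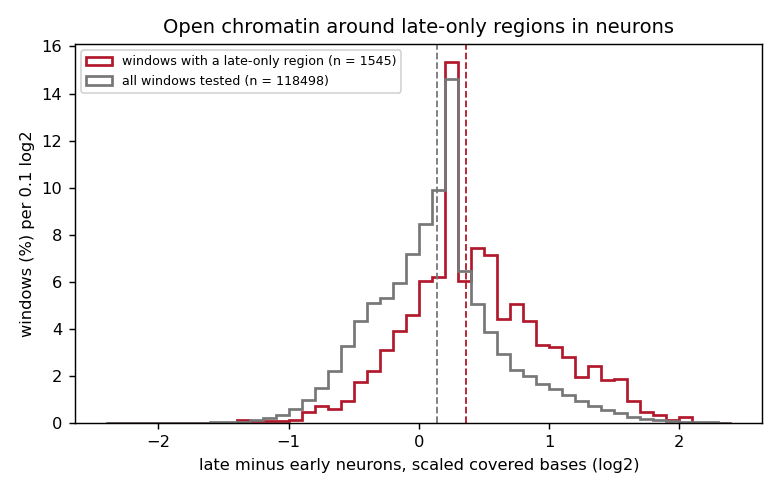
Distribution of the late minus early difference in scaled covered bases of neurons (log2, horizontal) over 1545 windows with a late-only region (red) and all 118498 windows tested (grey), in percent of windows per 0.1 (vertical), with dashed lines at the medians of 0.36 and 0.14. The spike lies at 0.26, the value that scaling gives to a window with no covered bases in neurons.

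The 11 lower windows held members, gained in late progenitors by the rule, and covered bases of the whole window were fewer in late neurons. These bases include peaks outside the member. In the window inside JAKMIP3, a microtubule-associated neuronal gene on chromosome 10, late neurons had 180, 82, 0 and 0 covered bases, against 1893, 1415, 1079 and 733 in early neurons (log2 difference -1.36 ± 0.29, adjusted p = 0.00322). Late progenitors had 1209, 202, 1005 and 275 bases there, and early progenitors 411 in day 60 replicate 2. The member itself had peaks in 2 early and 1 late neuron libraries. In the window inside PTPRG, a receptor phosphatase, late neurons had 37, 412, 0 and 0 bases, against 1657, 1716, 1498 and 591 in early neurons (-1.34 ± 0.28, adjusted p = 0.00262). Near RGS13 the difference was -1.27 ± 0.28 (adjusted p = 0.00386), in a window with 670 and 683 bases in day 40 progenitors. The calls inside EDIL3 (-1.12 ± 0.29, adjusted p = 0.0129) and NCK2 (-1.08 ± 0.29, adjusted p = 0.016) were lost when 1 library was left out, with adjusted p up to 0.0746 and 0.101. For EDIL3 these were day 40 replicate 2, day 60 replicate 2 and day 120 replicate 1, and for NCK2 day 40 replicate 2, day 60 replicate 1, day 90 replicate 2 and day 120 replicate 1.

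Whole gene loci were tested in the same way on scaled covered bases. Of the 23 genes with 3 or more members in the gene and 20 kb on either side, 3 were called higher in late neurons (13.0%), against 3.3% of 18755 loci tested, and 1 lower (4.35%), against 2.37%. Of the 875 loci with at least 1 member, 88 (10.1%) were called higher and 27 (3.09%) lower. IL1RAPL1, a synaptic organiser linked to intellectual disability, had 18.7 ± 1.72 kb in late neurons and 10.1 ± 4.68 kb in early neurons (SD, n = 4 each, log2 difference 1.21 ± 0.15, limma adjusted p = 7.22e-05). PLCB4, a phospholipase C, had 15.2 ± 0.989 and 9.20 ± 2.22 kb (0.99 ± 0.14, adjusted p = 0.000183), and TENM1, a teneurin adhesion protein, 14.7 ± 1.81 and 11.9 ± 5.80 kb (0.66 ± 0.14, adjusted p = 0.00437). LRMDA fell to 20.1 ± 4.25 kb in late neurons, against 41.5 ± 26.3 kb in early neurons (-0.51 ± 0.12, adjusted p = 0.01), a call lost without day 40 replicate 2, day 60 replicate 1 or day 90 replicate 1 (adjusted p up to 0.0778). DLG2, with most members, had 55.6 ± 12.9 kb in late neurons and 69.7 ± 18.7 kb in early neurons (-0.05 ± 0.10, adjusted p = 0.856). Without scaling no locus of the 23 was called, against 0.251% higher and 1.31% lower over all loci.

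The list genes in neurons, tested over whole loci in the same fit, were called in some lists under scaling. Over all 18755 loci 3.3% were called higher in late neurons and 2.37% lower, the background for each list. Among late temporal and gliogenic factors 5 of 12 were higher in late neurons and none lower (NFIA, NFIB, NFIX, ZBTB20 and NFE2L2). Their median log2 difference was 0.16, against a median of 0.06 over all loci. That lay below the medians of the radial glia (0.18), AP-1 (0.18) and housekeeping (0.20) genes, and above those of every other list reported here. ZBTB20, a factor of late progenitors and upper layers, had 32.5 ± 5.81 kb in late neurons and 23.7 ± 7.09 kb in early neurons (0.75 ± 0.12, adjusted p = 0.000786). NFIA had 31.6 ± 9.16 and 27.6 ± 10.1 kb (0.46 ± 0.11, adjusted p = 0.0106, lost without day 120 replicate 1, at 0.0594). Of 10 outer radial glia genes PTN, TNC and PTPRZ1 were higher and none lower, and of 20 radial glia genes SLC1A3 and FABP7 were higher and none lower. The calls of PTN, SLC1A3, FABP7 and ZBTB20 held with any neuron library left out, while NFIB, NFIX, NFE2L2, TNC and PTPRZ1 each lost theirs without 1 of 4 to 6 libraries (adjusted p up to 0.251). Of 11 early temporal genes HMGA2 and IGF2BP2, which mark early progenitors, were lower and none higher, the call of HMGA2 being lost without 1 of 6 libraries (adjusted p up to 0.233). None of 15 astroglial genes was called in either direction, and their summed peaks ran from 33.6 to 55.2 kb in late neurons and from 37.0 to 59.9 kb in early neurons. The radial glia genes summed to 116 to 182 kb in late neurons and 99.6 to 193 kb in early neurons, with no gene at 0, and their part in these calls was not tested. In each of 13 further lists at most 1 gene was higher and at most 2 were lower. Among these, 2 of 16 pan-neuronal genes, RBFOX3 and SYT1, were lower and none higher, and 1 was called lower without scaling. The call of RBFOX3 (log2 difference -0.60, limma adjusted p = 0.00522) held with any neuron library left out, while SYT1 lost its call without 1 of 5 libraries. Of 14 cortical hem and choroid plexus genes LMX1A and KL were lower and none higher. The mesenchymal, endothelial and microglial genes summed to 17.5 to 32.3 kb in late neurons and 21.6 to 45.8 kb in early neurons. Without scaling no gene of the late temporal, early temporal, outer radial glia, radial glia or astroglial lists was called, and the medians of all of these but the early temporal list turned negative (late temporal -0.10, outer radial glia -0.16, radial glia -0.08, astroglial -0.13), while that of all loci was -0.20.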

How the data were processed

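Each of the 16 libraries had 1 list of broad peaks, and the submitters' processing notes name MACS2 2.1.2, BWA 0.7.17, SAMtools 1.9, Trim Galore 0.5.0, Picard and hg38. The handling of duplicates, the Tn5 offset and replicates is not given in the sources used here, beyond lists being per library. The deposited score of a peak is 10 times its −log10 q, cut to a whole number, and the deposited fold enrichment is a ratio over the caller's background. Each peak also has a −log10 p-value and a −log10 q-value, deposited by the authors, and the lowest −log10 q of a list was 1.00 to 1.01. These values served to order or filter the peaks of a list, never to compare lists. Read depth is unknown, so no counting interval is given. The lists used held 67977 to 138432 peaks and covered 36.9 to 104 Mb, and 95 to 387 peaks on other chromosomes were left out. A longer list opens more regions, so covered length is given beside shares.

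A region was open in a library when a peak overlapped it by at least 1 base. Genes were the 19974 protein-coding genes of RefSeq (GRCh38.p14), given as spans without exons, and all 236 genes of 19 lists were found. Windows and loci covered by 500 bases or more in 2 or more libraries were fitted with limma 3.58.1 (R 4.3.3, trend) in 8 group means, with Benjamini-Hochberg adjustment over all windows or loci and a threshold of 0.05, and the fit was tested on simulated data. The pseudocount of 500 bases understates changes of sparse windows, and neighbouring loci share bases. Named items were the 10 genes with most members, list genes with at least 2, the 5 members nearest a gene end in each of 3 neuron patterns, the 5 called windows with the largest difference in each direction, and members at promoter windows. List genes with 1 member, loci with 3 or more and list genes called in neurons were also named, after their values were seen. The members, lists and rules were chosen with earlier results of these data known. No genome sequence was used, so motifs were searched in promoter windows only. Python 3.11.15 did the rest. The upper-layer neuron list and 1 member that the rule names are not reported here.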

Additional observations from a re-analysis of the deposited data

How the results depend on the processing

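Of 159 values under alternatives, 123 stayed within 1.5 times the count or 1 SD of the share, and 36 moved. Only the difference in share could reverse in sign, and it did not. Leaving out 1 library could only keep or raise the number of members and the region counts by neuron pattern. Without a neuron library the number of members was fixed. When peaks had to cover 50% of a region, the rule gave 1007 regions, which 341 of the 1708 (19.96%) overlapped, and of which 29 had peaks in all late and no early neurons and 18 in all 8, and the share differed by 11.5 points. With lists of equal covered length the members without a neuron peak were 237, those open in all 8 were 66 and the share differed by 31.6 points, over 1192 regions, which 35 of the 1708 (2.05%) overlapped. With peaks of −log10 q of at least 2 the rule gave 1482 regions, which 939 of the 1708 (54.98%) overlapped. Leaving out 1 library gave 1708 to 5294 members, the most without progenitor day 120 replicate 2, with 2795 without progenitor day 60 replicate 1 and 2797 without progenitor day 90 replicate 2. The other counts then ran from 94 to 297 (all late, no early neurons), 469 to 1303 (no neuron peak) and 122 to 476 (all 8), each highest without progenitor day 120 replicate 2. The first was 150 without neuron day 60 replicate 1 and 176 without neuron day 90 replicate 2, the second 975 without progenitor day 90 replicate 2, and the third 300 without progenitor day 60 replicate 1 and 188 without neuron day 40 replicate 2. The difference in share ran from 14.4 to 23.9 points. Without progenitor day 90 replicate 2 it was 14.4, and the lowest late neuron share (30.2%) then lay under the highest early one (32.1%).

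Member windows lower in late neurons were 42 (2.72%, against 7.09% of all windows) with a pseudocount of 100, 54 (3.50%, against 10.5%) without scaling and 32 (3.25%, against 8.44%) with lists of equal length. With a pseudocount of 2000, 5 were higher (0.324%, against 0.122%) and 0 lower (0 of all windows). Leaving out 1 neuron library gave 206 to 344 higher, the fewest without day 90 replicate 1, and 3 to 13 lower, with 3 without day 120 replicate 1 and 4 without day 40 replicate 2. Gene loci with 3 or more members were 0 higher and 0 lower without scaling (0.251% and 1.31% of all loci), and 6 and 0 with lists of equal length (3.04% and 3.62% of all loci). Without 1 library they were 3 to 3 higher and 0 to 1 lower.

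Deviations of same-numbered libraries from their group means had a mean r of 0.00886 over 28 pairs of groups (-0.116 to 0.154). Most of these pairs join different days, so this mean cannot tell whether progenitors and neurons of the same day were paired. With the replicate number as a block, 355 member windows were higher and 11 lower, and 3 loci higher and 1 lower, within 1.5 times the counts without it. The block applies to these 4 counts only, since region counts and shares come from no fit. Depth is unknown, and a region without a called peak may be open below the threshold of its list.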
